A study of Mus musculus with 6 samples.

Results

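RNA-seq of macrophages (MPs) sorted from injured mouse muscle was examined for genes that handle cholesterol and other lipids. The genes were 41 listed symbols, and 40 of them were among the 13008 genes of the deposited table. Fads2 was not in the table and was not analysed here. The 40 genes fell into sterol synthesis (16 genes), liver X receptor (LXR) and efflux (8 genes), fatty acid synthesis (6 of 7 listed) and lipid uptake or storage (10 genes). MPs were isolated from hind limb muscles of 3-month-old C57BL/6J mice, labelled male, on day 5 after injection of cardiotoxin, a venom toxin that kills muscle fibers. The 3 Control samples carry the label wild type. The 3 Cripto KO samples carry the label Tg:LysMCre::Cripto-/-, in which Cre recombinase under the lysozyme M promoter removes a floxed Cripto allele in myeloid cells, so that other muscle cells keep the gene. The study's methods describe sorting by GFP from the R26mTmG reporter together with low Ly6C, and the GFP Control mice of these methods also carry LysMCre, which the label wild type does not say. Cripto (gene symbol Tdgf1) was not in the table and was not analysed here, so the deletion could not be read from these values. By genomic PCR on an earlier day after injury, the study found deletion incomplete, though more complete in GFP-positive MPs than in all MPs. By a protein assay (ELISA) on day 5, it reported significantly less Cripto in GFP-positive MPs of the deleted mice than in those of the GFP Control mice.

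Macrophages that clear dying muscle fibers take up large amounts of membrane lipid. Cholesterol inside a cell comes from uptake and from the mevalonate pathway, whose enzymes are switched on by the transcription factor SREBP2 when sterol in the endoplasmic reticulum is low. When sterol accumulates, oxysterols and late sterol intermediates activate the LXR receptors, which raise the cholesterol exporters ABCA1 and ABCG1, apolipoprotein E and the fatty acid regulator SREBP1c. Surplus sterol and fatty acid are esterified and kept in lipid droplets.

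Each value is a normalized signal: 0.5 was added to a gene's reads and the sum scaled to 1000000 reads of the library after normalization, and whole reads could be recovered from it. Recovered reads ran from 12688968 to 14141773 for a Control library and from 14633880 to 15659847 for a Cripto KO library, so the 3 Cripto KO libraries were all deeper. The sorted cells carried macrophage transcripts in every sample, with Adgre1 (F4/80) between 1065 and 1384, and 8 of 9 macrophage markers were measured, while the symbol Itgam stood under 2 identifiers and was not used. Among the Control samples 2 libraries stood apart in genes other than lipid genes. In Control replicate 1, Xist was at 171, against 0.114 to 0.885 in the other 5 samples, and the sum of 4 genes of chromosome Y was 0.368, against 130.4 to 159.1, which goes against the label male. In Control replicate 2, Lyz2, the lysozyme M gene, was at 11070, against 21.2 to 28.3 in the other 5 samples. Control replicates 1 and 3, at 25.2 and 21.4, thus lay within the range of the Cripto KO samples. Which Control samples carried LysMCre was not tested. The main counts below are given with and without Control replicates 1 and 2. The study's figure legend for these data gives 3 biological replicates. Nothing in the labels says that replicates came from separate animals, so p-values measure the spread between these samples.

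Differences between genotypes are given as log2(Control/Cripto KO), so a negative value means a lower level in Control, and their test was limma with a variance trend over all 13008 genes, with Benjamini-Hochberg adjustment. None of the 40 genes passed an adjusted p of 0.05 in limma, where 17 of all genes (0.131%) passed, and the smallest adjusted p among the 40 was 0.279. At an unadjusted p under 0.05, 7 of the 40 genes (17.5%) were below the threshold, all with lower values in Control, against 8.59% of all genes in either direction and 3.99% in that direction. The 3 Control values lay wholly outside the 3 Cripto KO values for 10 of the 40 genes (25.0%), against 14.5% of all genes, and in 9 of the 10 the Control values were the lower ones, against 6.43% of all genes. All 40 genes had a mean value of at least 1, and among the 11960 genes of the table with such a mean these shares were 14.6% in either direction and 6.51% with Control lower. No member was called by the edgeR quasi-likelihood test or by limma with voom weights on recovered reads either. DESeq2 called 1 of them, Lpl. Leaving out Control replicate 1 gave 8 of the 40 at an unadjusted p under 0.05, against 10.5% of all genes. In that fit 18 were without overlap (28.1% of all genes with 2 Control samples left). Leaving out Control replicate 2 gave 7 (7.97% of all genes) and 14 (24.7%). Without Cripto KO replicate 1 the first count was 4 of the 40, against 7.59% of all genes. Without Cripto KO replicate 2 the second count was 16 (26.0% of all genes).

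**Figure D1:**
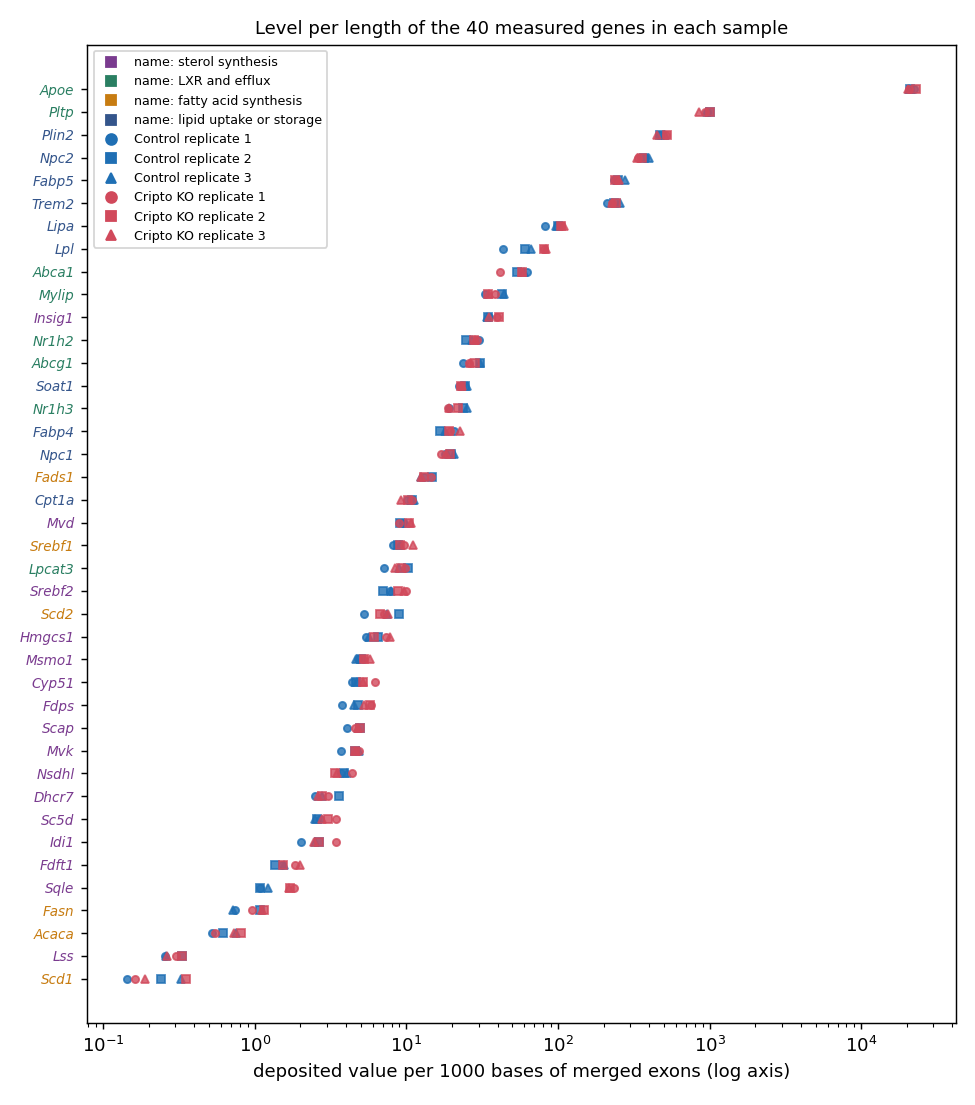
Normalized value per 1000 bases of merged exons (horizontal log axis) of the 40 measured genes, ordered by mean, with 1 point for each of 3 Control (blue) and 3 Cripto KO (red) samples and gene names coloured by sub-group. Apoe stands at about 21320 per 1000 bases, apart from every other gene. The sterol synthesis genes lie in the lower part of the order, together with the fatty acid synthesis genes and some genes of the other sub-groups.

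Levels per length were compared between genes as the mean normalized value over 6 samples per 1000 bases of merged exons. Apoe, the apolipoprotein that carries cholesterol out of macrophages, headed the order at 21320 per 1000 bases and took 4.27% to 4.73% of all recovered reads in a sample. Next in the order came Pltp, a phospholipid transfer protein, the lipid droplet coat gene Plin2 at 488.2 per 1000 bases, and Npc2, which hands cholesterol out of lysosomes, at 361.5 per 1000 bases. The fatty acid carrier Fabp5 and the lipid receptor Trem2 followed, with sample values that overlapped each other per length. The enzymes of sterol synthesis ranged lower, from 9.80 per 1000 bases for Mvd, through 6.48 for Hmgcs1, to 0.292 for Lss. The lowest level per length belonged to Scd1, at 0.236 per 1000 bases, or 9 to 24 reads in a sample. In this order the 16 genes of sterol synthesis all lay below the mean of Mylip, which encodes an LXR-induced ubiquitin ligase. So did all measured genes of fatty acid synthesis and some genes of the other sub-groups. The regulator Insig1 was the highest of the 16 at 36.6 per 1000 bases.

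**Figure D2:**
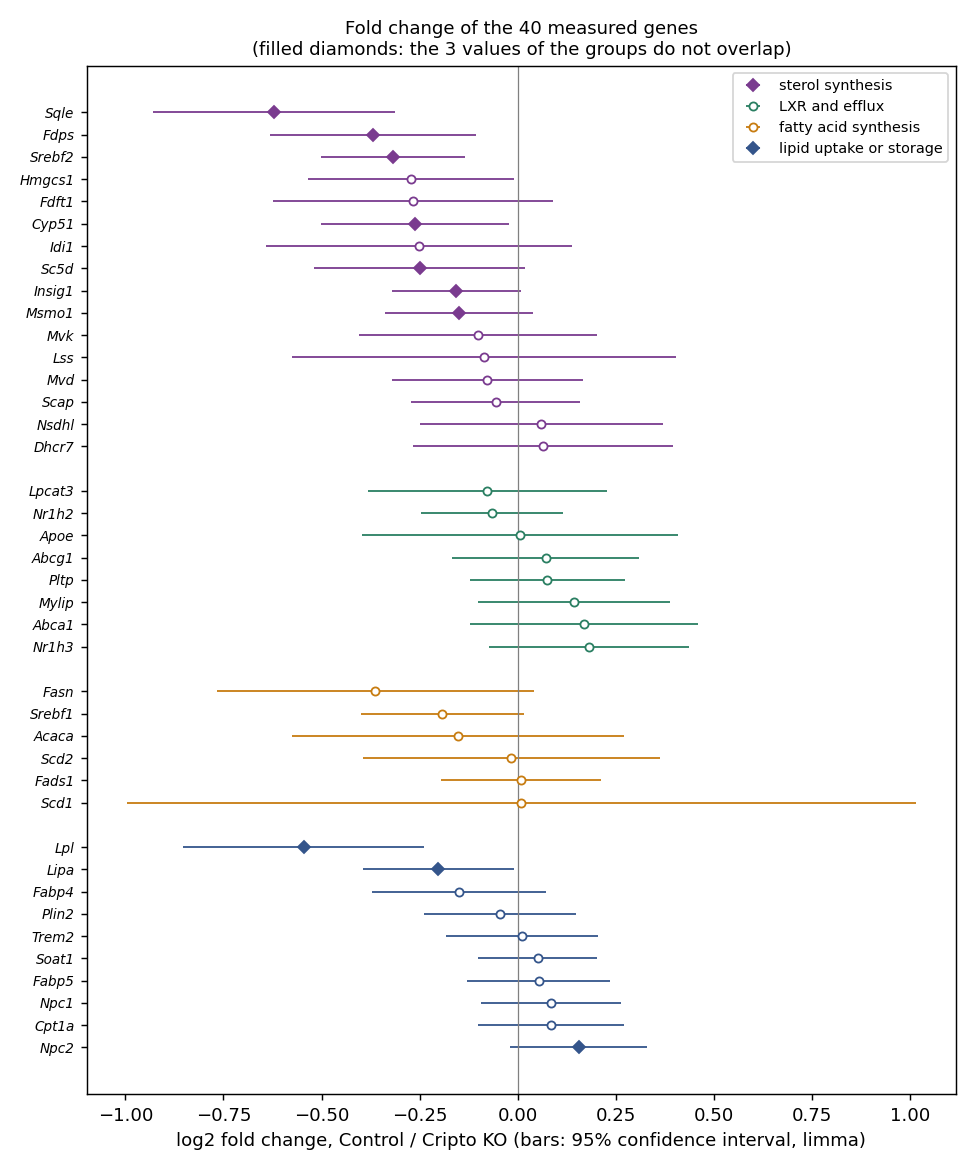
Log2 fold change, Control over Cripto KO, of the 40 measured genes by sub-group, with limma's 95% confidence interval, where filled diamonds mark the 10 genes whose groups do not overlap. In sterol synthesis 14 of 16 estimates lie left of 0, and the intervals of Sqle, Fdps, Srebf2, Hmgcs1, Cyp51, Lpl and Lipa do not reach 0 before adjustment.

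The genes of sterol synthesis had lower values in Control than in Cripto KO for 14 of 16 members (87.5%), against 47.4% of all genes. The median log2 fold change of the 16 was -0.20, beside 0.01 over all genes. Of the 16, 5 had an unadjusted p under 0.05 and 7 had groups without overlap, all with Control lower, and none passed the adjusted threshold in limma. Leaving out Control replicate 1, Control replicate 3 or Cripto KO replicate 1 turned the 5 into 3, and leaving out Control replicate 2 into 4. Of all genes, 10.5%, 6.8%, 7.59% and 7.97% were below the threshold in these fits, in that order. Lower values in Control were found for 12 of 16 when Control replicate 1 was left out (48.0% of all genes). The count was 15 when Control replicate 2 was left out (47.0% of all genes). Of the 16, 7 were separate when Control replicate 1 was left out and 9 when Control replicate 2 was, at medians of -0.16 and -0.21. In these fits 28.1% and 24.7% of all genes were separate, against 14.5% with all samples.

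**Figure D3:**
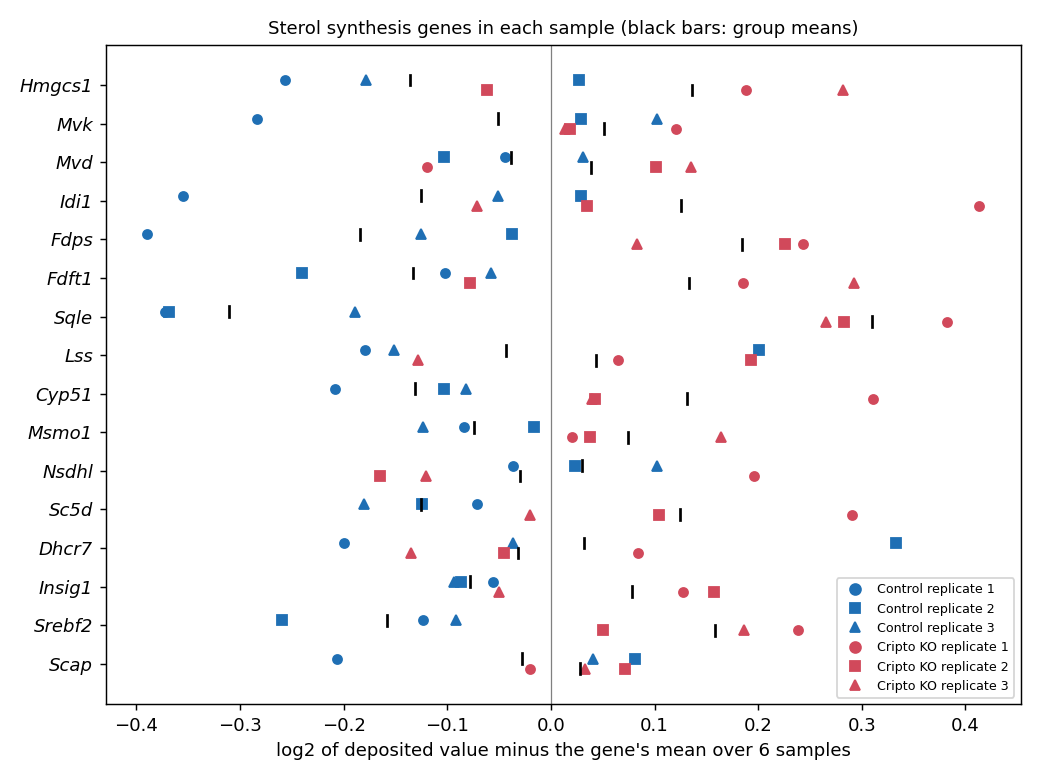
Log2 of the normalized value minus the gene's mean over 6 samples (horizontal axis) of the 16 sterol synthesis genes, with Control in blue, Cripto KO in red, a marker shape for each replicate and a black bar at each group mean. The blue and red points of Fdps, Sqle, Cyp51, Msmo1, Sc5d, Insig1 and Srebf2 do not overlap, whereas those of Mvk, Mvd, Nsdhl, Dhcr7 and Scap mix.

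The early part of the pathway makes mevalonate and joins it into farnesyl diphosphate. Hmgcs1, which makes HMG-CoA, was at 24.7, 30.1 and 26.1 in the 3 Control samples and at 33.6, 28.3 and 35.9 in Cripto KO. Control replicate 2 and Cripto KO replicate 2 crossed, so these groups overlapped (log2 fold change -0.27 ± 0.117 SE, 95% interval -0.54 to -0.01, unadjusted p = 0.0444, limma adjusted p = 0.561). Fdps, farnesyl diphosphate synthase, was at 15.9, 20.2 and 19.1 in Control and at 24.6, 24.3 and 22.0 in Cripto KO. All 3 Cripto KO values exceeded the Control values, and the log2 fold change was -0.37 ± 0.116 SE (limma adjusted p = 0.470). Fdps shares 27.9% of its 31-base words with other transcripts of the annotation, mostly with Gm43738, which was not in the table, so its reads are uncertain. Idi1, which interconverts the isoprene units, gave 7.10, 9.27 and 8.77 in Control and at 12.1, 9.31 and 8.65 in Cripto KO, with groups that overlapped, and it shares 18.8% of its words, mostly with Gm13502. Mvk and Mvd, the kinase and the decarboxylase of mevalonate, overlapped between groups, at 9.90 to 13.1 for Mvk and 16.7 to 19.96 for Mvd over the 6 samples.

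Downstream, the pathway is committed to sterols. Sqle, squalene epoxidase, a rate-limiting oxygen-dependent step, had the largest absolute fold change of the 40 genes. It was at 6.00, 6.02 and 6.82 in Control (81, 79 and 83 reads) and at 10.1, 9.45 and 9.34 in Cripto KO (159, 133 and 135 reads). The lowest Cripto KO sample stood above the highest Control sample, the mean was 1.54 times that of Control, and the log2 fold change was -0.62 ± 0.136 SE (95% interval -0.93 to -0.31, unadjusted p = 0.00135, limma adjusted p = 0.279). Over 18 alternative fits the log2 fold change of Sqle ran from -0.68 to -0.55 and its adjusted p from 0.194 to 0.692. Cyp51, the lanosterol demethylase, was at 19.3, 20.7 and 21.01 in Control and at 27.6, 22.9 and 22.9 in Cripto KO. These groups did not overlap, Cripto KO replicate 1 was the highest sample, and the log2 fold change was -0.26 ± 0.106 SE (limma adjusted p = 0.537), or -0.17 without Cripto KO replicate 1. Sc5d, which introduces the double bond at the fifth carbon of the ring, was at 13.1, 12.6 and 12.1 in Control and at 16.8, 14.8 and 13.5 in Cripto KO (log2 fold change -0.25 ± 0.119 SE, limma adjusted p = 0.620). Msmo1, which begins removal of the methyl groups at the fourth carbon, was at 29.6, 30.99 and 28.8 in Control and at 31.8, 32.2 and 35.1 in Cripto KO (log2 fold change -0.15 ± 0.0833 SE, limma adjusted p = 0.684). In both genes the groups were separate by narrow margins and the intervals included 0.

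The other enzymes after farnesyl diphosphate overlapped between groups. Fdft1, squalene synthase, gave 6.37, 5.79 and 6.57 in Control and at 7.78, 6.48 and 8.38 in Cripto KO, and shares 14.3% of its words with Gm6781. Lss, which closes the sterol ring, rested on 34 to 51 reads in a sample. The 95% interval of its log2 fold change, -0.58 to 0.40, included both 0 and a difference of the size seen in Cyp51. Nsdhl and Dhcr7, which act on methyl groups and on the last double bond, had the only positive estimates of the list, and the largest log2 fold change in the list was 0.06. Control replicate 2 was the highest of the 6 samples in Dhcr7, at 20.9 against 14.5 to 17.6.

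Of the 3 regulators, Srebf2 and Insig1 were separate between groups and Scap was not. Srebf2, which encodes SREBP2 itself, was at 55.7, 50.7 and 56.9 in Control and at 71.6, 62.8 and 69.0 in Cripto KO. The 3 Cripto KO samples were the higher ones (887 to 1127 reads, against 669 to 756 in Control), and the log2 fold change was -0.32 ± 0.0813 SE (95% interval -0.50 to -0.13, unadjusted p = 0.00356, limma adjusted p = 0.383). Insig1, an SREBP target whose product holds SREBP in the endoplasmic reticulum, was at 108.6, 106.3 and 105.8 in Control and at 123.3, 125.9 and 109.0 in Cripto KO. Cripto KO replicate 3 came close to the Control samples, and the log2 fold change was -0.16 ± 0.0727 SE (limma adjusted p = 0.603). Scap, the sterol-sensing escort of SREBP, ranged from 30.2 to 36.8 over the 6 samples with groups that overlapped. Scap lies 0.606 Mb from Tdgf1 on chromosome 9, the deleted locus.

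Of 15 further genes of sterol synthesis and SREBP control, 14 were in the table. Control values were lower for 10 of the 14 (71.4%), against 47.4% of all genes, and the median log2 fold change was -0.03. None passed in limma after adjustment, and 3 of the 14 (21.4%) had an unadjusted p under 0.05, against 8.59% of all genes. Hsd17b7, which reduces a ring ketone in sterol synthesis, was at 1.22, 1.703 and 1.18 in Control and at 2.32, 2.44 and 2.24 in Cripto KO, on 14 to 36 reads (log2 fold change -0.79 ± 0.271 SE, limma adjusted p = 0.500). Ebp, the sterol isomerase, went the other way, at 59.4, 59.5 and 61.3 in Control and at 46.6, 56.0 and 53.7 in Cripto KO (log2 fold change 0.21 ± 0.0843 SE, limma adjusted p = 0.536, and 0.13 without Cripto KO replicate 1).

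The promoters of these genes were read for the letters bound by their known regulators, because SREBP2 acts together with NF-Y, a factor that binds CCAAT boxes. In the 250 bases before the start of each RefSeq gene (GRCm38.p6), TCACNCCAC (a form of the sterol regulatory element) and CCAAT were searched on both strands (the motifs can share at most 1 base), and a gene counted where any of its listed promoters held the letters. Of the 16 sterol synthesis genes 13 were in the promoter table, and Fdps, Sqle and Fdft1 were not. CCAAT was found for 12 of the 13 (92.3%), against 40.4% of the 9537 genes of the deposited table with a promoter and 37.5% of all 27025 genes of the promoter table. It was also found for 6 of 6 genes of lipid uptake or storage, 3 of 7 of LXR and efflux and 2 of 3 of fatty acid synthesis. TCACNCCAC was found for 1 of the 13, Hmgcs1, against 1.18% of genes of the deposited table and 1.23% of all genes with a promoter. A match is a description of letters and not of binding. Windows around the matches that lie outside the annotated gene are shown for the sterol synthesis members with an unadjusted p under 0.05 or separate groups, and for Mvk and Nsdhl, whose groups overlapped, written in the direction of the gene. Capitals mark the motifs, with ATTGG for a CCAAT on the other strand.
Hmgcs1 (chr13:119690101-119690330, + strand): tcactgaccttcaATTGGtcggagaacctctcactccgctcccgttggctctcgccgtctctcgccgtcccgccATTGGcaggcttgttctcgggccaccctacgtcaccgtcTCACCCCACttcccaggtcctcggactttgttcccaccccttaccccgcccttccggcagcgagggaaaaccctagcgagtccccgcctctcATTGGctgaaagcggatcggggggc
Srebf2 (chr15:82147114-82147158, + strand): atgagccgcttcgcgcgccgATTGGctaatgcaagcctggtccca
Insig1 (chr5:28071176-28071220, + strand): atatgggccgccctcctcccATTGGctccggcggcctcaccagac
Sc5d (chr9:42264301-42264344, - strand): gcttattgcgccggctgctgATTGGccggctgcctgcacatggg
Mvk (chr5:114444076-114444268, + strand): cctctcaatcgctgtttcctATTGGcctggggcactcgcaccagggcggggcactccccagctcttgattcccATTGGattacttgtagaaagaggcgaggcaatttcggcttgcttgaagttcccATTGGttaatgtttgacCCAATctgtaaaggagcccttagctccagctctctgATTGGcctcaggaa
Nsdhl (chrX:72918392-72918520, + strand): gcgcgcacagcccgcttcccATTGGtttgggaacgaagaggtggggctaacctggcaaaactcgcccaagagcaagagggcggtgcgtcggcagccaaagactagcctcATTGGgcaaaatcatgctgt
In Hmgcs1 the element TCACCCCAC ends 129 bases before the start, between CCAAT boxes, and the box nearest the start ends 41 bases before it. Mvk had 5 boxes, the most in the list, and overlapping groups, while Srebf2, with groups apart, had 1 box.

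**Figure D4:**
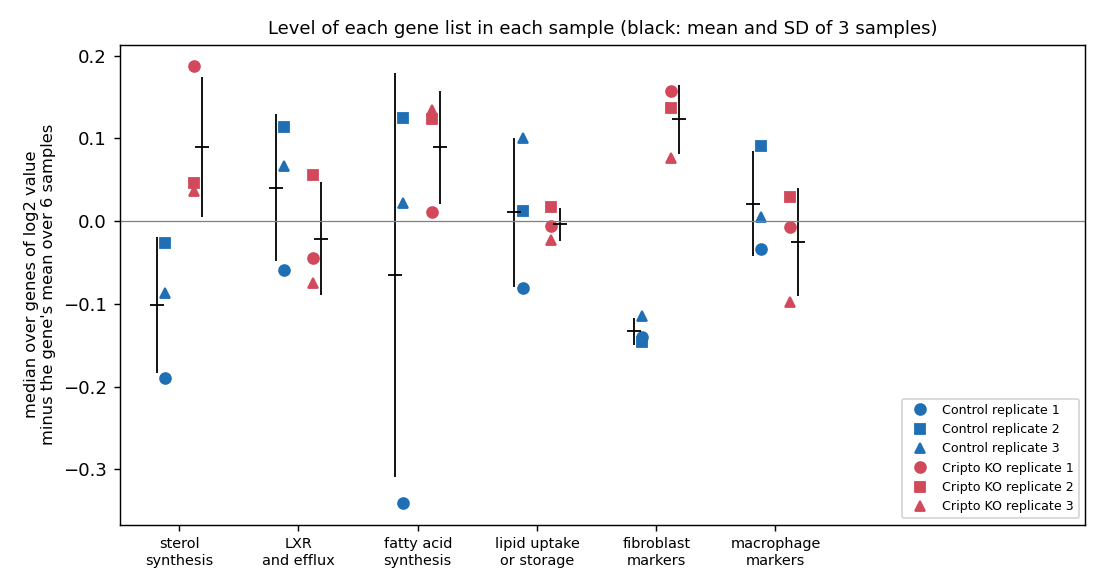
Level of each of 4 sub-groups and of fibroblast and macrophage markers in each sample, as the median over genes of the log2 value minus the gene's mean over 6 samples, with black bars for mean and SD of 3 samples. Of the 6 lists plotted, sterol synthesis and fibroblast markers are those whose Control and Cripto KO samples do not overlap.

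Summed per sample, the 16 sterol synthesis genes were at 371.6, 394.2 and 389.9 in Control (385 ± 11.99 SD, n = 3) and at 456.7, 434.0 and 429.5 in Cripto KO (440 ± 14.6 SD, n = 3). As a median log2 deviation per sample the list stood at -0.19, -0.03 and -0.09 in Control and at 0.19, 0.05 and 0.04 in Cripto KO, with SDs of 0.0824 and 0.0843 between samples. Cripto KO replicate 1 had the highest level of the list and Control replicate 1 the lowest. Other measures also differed between the group means. All 9 fibroblast markers had lower values in Control, 5 of them with an unadjusted p under 0.05 and none after adjustment, and they summed to 464.1 to 486.7 in Control and 547.2 to 596.4 in Cripto KO, led by Col1a1 at 191.3 to 201.3 and 223.4 to 244.0. The defining fibroblast gene Pdgfra was near the floor, at 0.405 to 0.694 in Control and 1.03 to 1.21 in Cripto KO. Of the 8 muscle fiber markers 7 went the other way, and the list summed to 43.7 to 92.0 in Control and 19.8 to 62.2 in Cripto KO, 6 of the 8 with an unadjusted p under 0.05 and higher in Control. With all samples, 8.59% of all genes were below this threshold. Without Control replicate 1 the fibroblast count was 3 and the muscle fiber count 1, against 10.5% of all genes in that fit. Without Control replicate 2 they were 5 and 6, against 7.97% of all genes. Library depth was also higher in every Cripto KO sample. The part of fibroblast RNA, muscle RNA and depth in the sterol result was not tested. In the sorted bulk RNA, fewer cells of a type and less RNA per cell cannot be told apart.

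The genes of cholesterol export overlapped between groups. None of the 8 members of LXR and efflux had an unadjusted p under 0.05 in limma or groups apart, and 6 of 8 had positive estimates, with a median log2 fold change of 0.07 and a range of -0.08 to 0.18. Without Control replicate 1, 3 of the 8 had an unadjusted p under 0.05 (10.5% of all genes in that fit) and 4 had groups apart (28.1% of all genes). Without Control replicate 2 these counts were 0 and 1, against 7.97% and 24.7% of all genes. The LXR genes themselves were measured well. Nr1h3 (LXR alpha) was at 48.2, 59.3 and 63.5 in Control and at 47.3, 55.0 and 47.7 in Cripto KO. Control replicate 1 sat among the Cripto KO samples, and the log2 fold change was 0.18 with a 95% interval of -0.07 to 0.44 (limma adjusted p = 0.699). Leaving out Control replicate 1 gave 0.30 and leaving out Control replicate 3 gave 0.10. Nr1h2 (LXR beta), which is expressed in most cells, ran from 83.5 to 100.7 over the 6 samples and overlapped between groups.

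The exporters and lipoprotein genes that LXR induces overlapped as well. Abca1, which loads cholesterol onto apolipoprotein A-I, was at 644.1, 552.2 and 615.8 in Control and at 430.1, 602.6 and 595.9 in Cripto KO. Cripto KO replicate 1 was the lowest of the 6, and the log2 fold change was 0.17 with an interval of -0.12 to 0.46 (limma adjusted p = 0.754). Leaving out Cripto KO replicate 1 gave 0.01, the lowest of the 18 alternative fits. Apoe was at 47620, 45110 and 44220 in Control and at 43970, 49200 and 43340 in Cripto KO, and the log2 fold change was 0.01 with an interval of -0.40 to 0.41 (limma adjusted p = 0.993). Its SD within groups was 0.0810 on the log2 scale, below the SE of 0.178 that limma gave it. Abcg1, which passes cholesterol to HDL, ran from 171.9 to 224.4, Pltp from 2188 to 2582 and Mylip from 107.2 to 142.9, each with overlap. Lpcat3, which makes phospholipids with polyunsaturated chains, ran from 23.2 to 33.5.

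Among 15 further genes of LXR signalling and efflux, 13 (86.7%) had higher Control values, against 52.6% of all genes, and the median log2 fold change was 0.09. The list's median log2 deviation per sample, 0.06 to 0.13 in Control and -0.08 to -0.03 in Cripto KO, did not overlap between groups. In limma 3 of the 15 had an unadjusted p under 0.05 and none passed after adjustment. Ncor1, a corepressor of nuclear receptors, was at 63.3, 63.7 and 63.0 in Control and at 55.0, 49.9 and 55.0 in Cripto KO (log2 fold change 0.25 ± 0.0713 SE, limma adjusted p = 0.420). The 3 Control samples were tightly grouped and above all Cripto KO samples. Scarb1, the HDL receptor SR-BI, was at 86.8, 109.3 and 118.7 in Control and at 120.9, 131.1 and 127.7 in Cripto KO, separate in the direction of sterol synthesis (log2 fold change -0.28 ± 0.109 SE, limma adjusted p = 0.529, and -0.15 without Control replicate 1). Apoc4, an apolipoprotein gene of the Apoe cluster, was at 1.51, 1.55 and 2.49 in Control and at 1.11, 1.03 and 1.00 in Cripto KO, on 14 to 30 reads (log2 fold change 0.78 ± 0.318 SE, limma adjusted p = 0.537).

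Fatty acid synthesis showed no separation of groups in any of 6 measured members. The median log2 fold change was -0.08, and 4 of 6 estimates were negative. Leaving out Control replicate 1 gave a median of 0.0016 and leaving out Control replicate 3 gave -0.24, and Control replicate 1 had the lowest level of the list, at a median log2 deviation of -0.34 against 0.01 to 0.13 in the other 5 samples. Srebf1, which encodes SREBP1, was at 46.3, 49.4 and 50.9 in Control and at 54.7, 50.8 and 62.5 in Cripto KO. Control replicate 3 and Cripto KO replicate 2 met, and the log2 fold change was -0.19 ± 0.0915 SE (limma adjusted p = 0.620), or -0.11 without Cripto KO replicate 3. Fasn, fatty acid synthase, was at 8.14, 11.9 and 7.88 in Control and at 10.5, 12.6 and 12.3 in Cripto KO. Here Control replicate 2 lay among the Cripto KO samples, at a log2 fold change of -0.36 ± 0.179 SE with an interval from -0.77 to 0.04 (limma adjusted p = 0.633), and -0.55 without Control replicate 2. Acaca, which makes malonyl-CoA, ran from 8.87 to 13.9 with overlap, and shares 33.4% of its words with other transcripts, mostly Gm5182, so its reads are uncertain.

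The desaturases overlapped between groups, at levels far apart. Scd1 was at 0.699, 1.17 and 1.59 in Control and at 0.794, 1.73 and 0.931 in Cripto KO. On 9 to 24 reads the interval of its log2 fold change ran from -0.997 to 1.01, so it included differences of nearly 2-fold either way (limma adjusted p = 0.996). Scd2, the paralog that these cells expressed more, was at 28.8, 48.6 and 40.9 in Control and at 38.8, 36.6 and 41.6 in Cripto KO. Control replicates 1 and 2 were its lowest and highest samples, and the log2 fold change was -0.02 with an interval of -0.39 to 0.36 (limma adjusted p = 0.988). Fads1, the delta-5 desaturase of polyunsaturated fatty acids, had the highest level per length of the sub-group and was at 63.2, 71.3 and 60.5 in Control and at 70.4, 63.3 and 60.1 in Cripto KO (log2 fold change 0.01, interval -0.20 to 0.21, limma adjusted p = 0.987). The signs of the Scd1, Scd2 and Fads1 estimates turned in other fits. Of 15 further genes of this kind, 12 were in the table, with a median log2 fold change of -0.02. Of the 12, 1 (8.33%) had an unadjusted p under 0.05, near the share of 8.59% of all genes. This gene was Me1, malic enzyme, which supplies NADPH, at 1.44, 1.17 and 0.694 in Control and at 1.81, 2.02 and 2.59 in Cripto KO, on 8 to 37 reads (log2 fold change -1.005 ± 0.352 SE, limma adjusted p = 0.500). Me1 shares 30.0% of its words with other transcripts, mostly Gm7049, so its reads are uncertain.

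**Figure D5:**
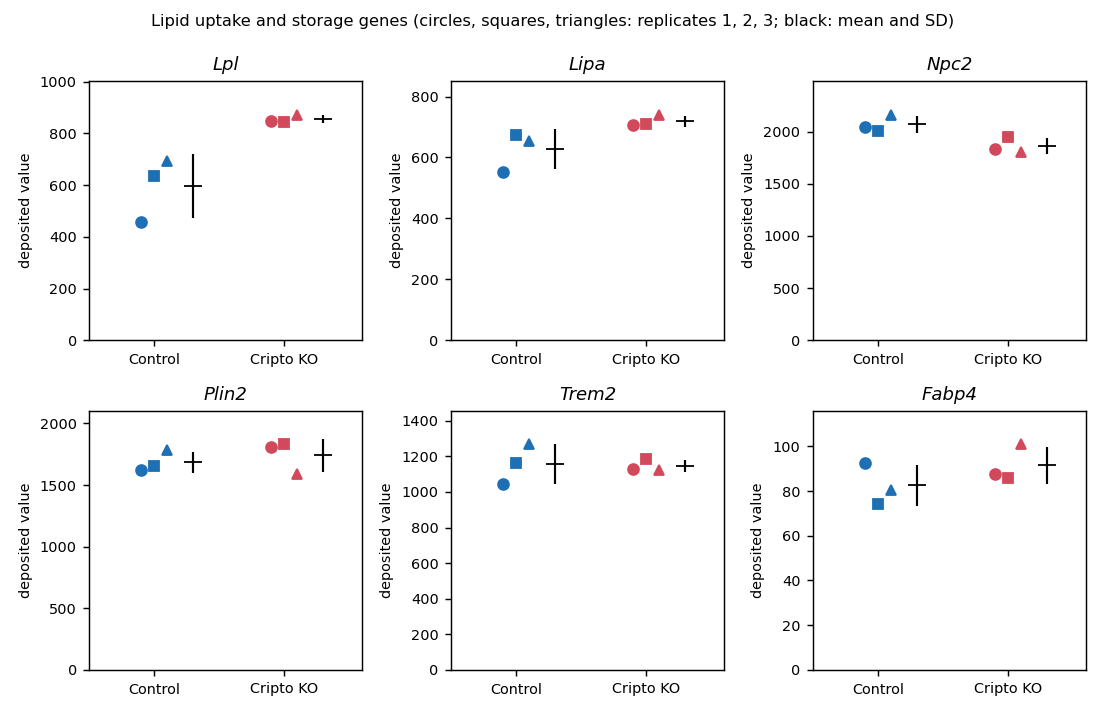
Normalized values (vertical axes from 0) of Lpl, Lipa, Npc2, Plin2, Trem2 and Fabp4 in each sample by group, with mean and SD of 3 samples in black. The 3 Cripto KO samples of Lpl sit between 843.8 and 871.4, all above the Control samples, and those of Npc2 sit below them.

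The genes of lipid uptake or storage had no common direction: 4 of 10 estimates were negative, and the median log2 fold change was 0.03. Leaving out Control replicate 3 gave -0.04 and leaving out Control replicate 1 gave 0.09. In the latter fit 7 of 10 genes were separate (28.1% of all genes), in place of 3 (14.5% of all genes). Within the list Lpl stood out in size. Lpl, lipoprotein lipase, which frees fatty acids from triglyceride-rich lipoproteins, was at 456.0, 634.7 and 693.3 in Control (595 ± 124 SD, n = 3) and at 849.1, 843.8 and 871.4 in Cripto KO (855 ± 14.6 SD, n = 3). The Cripto KO samples were tightly grouped and all higher, while the Control samples were spread, with Control replicate 1 the lowest. The log2 fold change was -0.55 ± 0.136 SE (95% interval -0.85 to -0.24, unadjusted p = 0.00303, limma adjusted p = 0.376), and DESeq2 gave an adjusted p of 0.00538 at -0.53. DESeq2 called 71 of all genes where limma called 17. Without any 1 of the 6 samples the log2 fold change of Lpl stayed between -0.67 and -0.37, with limma adjusted p between 0.111 and 0.833. The endothelial gene Gpihbp1, which anchors this enzyme to capillaries, was among 9 endothelial markers of which none had an unadjusted p under 0.05 in limma, and of 8 adipocyte markers, cells that also make Lpl, Cfd alone was in the table, at 3 reads or fewer in every sample. The fibroblast markers had lower values in Control, as Lpl did, at the sums given above (9 of 9 markers), and their part in the Lpl values was not tested.

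The lysosomal genes lay on both sides of 0. Lipa, the acid lipase that hydrolyses cholesteryl esters, was at 552.9, 674.5 and 653.7 in Control and at 705.7, 711.0 and 739.9 in Cripto KO, in the direction of Lpl and without overlap. The log2 fold change was -0.20 ± 0.0849 SE (unadjusted p = 0.0410, limma adjusted p = 0.555), and -0.11 without Control replicate 1. Npc2, which binds the cholesterol that Lipa releases, was at 2046, 2007 and 2161 in Control and at 1832, 1945 and 1803 in Cripto KO, in the opposite direction and also without overlap. It was the 1 member of the 40 that was separate with Control higher (log2 fold change 0.16 ± 0.0770 SE, interval -0.02 to 0.33, limma adjusted p = 0.637). Npc1, the membrane partner of Npc2, ran from 192.5 to 233.0 over the samples, and its groups overlapped.

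Genes of lipid-laden macrophages were strongly expressed and overlapped between groups. Trem2, the lipid-sensing receptor of such cells, was at 1042, 1161 and 1267 in Control and at 1126, 1186 and 1123 in Cripto KO, with Control replicates 1 and 3 as the lowest and highest (log2 fold change 0.01, interval -0.18 to 0.20, limma adjusted p = 0.981). Plin2, which coats lipid droplets, was at 1619, 1658 and 1783 in Control and at 1810, 1830 and 1587 in Cripto KO (log2 fold change -0.05, interval -0.24 to 0.15, limma adjusted p = 0.915). Fabp5 was at 835.8, 881.3 and 991.5 in Control and at 857.4, 846.7 and 900.5 in Cripto KO (log2 fold change 0.05, interval -0.13 to 0.23, limma adjusted p = 0.891). Fabp4, its relative in fat cells and macrophages, was at 92.7, 74.4 and 80.6 in Control and at 87.7, 85.9 and 100.9 in Cripto KO (log2 fold change -0.15, interval -0.37 to 0.07, limma adjusted p = 0.712, and -0.24 to -0.08 when 1 sample was left out). Taken over Trem2, Plin2 and Fabp5, the intervals lay between -0.24 and 0.23. Soat1, which esterifies cholesterol, ran from 216.4 to 245.9, and Cpt1a, which brings fatty acids into mitochondria, from 70.4 to 85.3, each with overlap. In a further list of 8 genes of lipid-associated macrophages, among them Gpnmb, Spp1 and Cd9, none had an unadjusted p under 0.05 in limma, none was separate, and the median log2 fold change was 0.05. Without Control replicate 1 these counts were 1 and 4, against 10.5% and 28.1% of all genes in that fit. All 8 estimates were then positive, against 52.0% of all genes.

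Of 25 further genes of uptake, storage and oxidation, 24 were in the table, with a median log2 fold change of -0.05. In limma 2 of the 24 (8.33%) had an unadjusted p under 0.05, near the share of 8.59% of all genes, and none passed after adjustment. Abhd5, the coactivator of the triglyceride lipase ATGL, was at 39.0, 45.5 and 43.4 in Control and at 34.6, 39.96 and 34.98 in Cripto KO, with overlap in 1 pair (log2 fold change 0.22 ± 0.0936 SE, limma adjusted p = 0.555). Pparg, a nuclear receptor of fatty acid uptake and storage, was at 34.1, 33.9 and 30.7 in Control and at 35.5, 41.7 and 37.5 in Cripto KO, without overlap (log2 fold change -0.22 ± 0.0917 SE, limma adjusted p = 0.559). Cd36, the scavenger receptor that takes up fatty acids and oxidized lipoproteins, was at 519.5, 598.9 and 626.2 in Control and at 736.4, 626.2 and 639.2 in Cripto KO, with an unadjusted p of 0.0622.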

How the data were processed

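Processing was as follows. RNA-seq libraries were made from 200 ng of RNA of sorted MPs with a kit that does not mark strand. The authors trimmed the reads with Cutadapt 1.7.1, discarding reads under 30 bases, quantified them with RSEM 1.2.20 on the mouse transcriptome (GRCm38, release 91), and normalized with limma (FastQC and edgeR are also in the submitters' processing notes). The deposited values are a normalized signal for each gene. Whole reads were recovered from it (100% of 78048 values within 0.01 of a whole read). A total of 147 genes carried no symbol. The main test was limma 3.58.1 (lmFit, eBayes with a variance trend) in R 4.3.3 on log2 values without a pseudocount. Alternatives were edgeR 4.0.16 (quasi-likelihood), DESeq2 1.42.0 and voom on recovered reads, pseudocounts of 0.5 and 1, a mean of at least 1, other scalings, a replicate block, and fits that left out each sample in turn. The fits were tested on simulated data. Gene lengths are merged exons of GENCODE M21 (GRCm38), and shared words are 31-base words of its transcripts. Recovered reads at or under 3 count as the floor, which covers counting error only.

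Values in every sample were given for genes with an unadjusted p under 0.05 or separate groups, the 2 largest fold changes and the highest level per length in each sub-group, and 14 anchor genes, and for at most 4 genes with an unadjusted p under 0.05 in each further list. Cd36, Idi1 and Fdft1 were added after their values were seen, and some genes of the further lists are counted but not reported here by name. The genes and lists were chosen with earlier results of these data known, so no list is independent evidence.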

Additional observations from a re-analysis of the deposited data

How the results depend on the processing

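Counts and medians were recomputed under 18 alternatives, of which 6 left out 1 sample. DESeq2 called 1 member where limma called 0, and the other alternatives called 0. The genes of sterol synthesis with an unadjusted p under 0.05 numbered 3 in place of 5 with the replicate block (7.13% of all genes). They numbered 3 to 6 when 1 sample was left out (5.7% to 10.5% of all genes). The replicate block was not used in the report because samples of the same number did not deviate together (correlations of -0.21, -0.0052 and -2.5e-05), and it gave 2 called genes of all 13008 in place of 17. Leaving out 1 sample gave 4 to 8 members with an unadjusted p under 0.05 (5.7% to 10.5% of all genes in these fits). It gave 12 to 18 members without overlap (21.9% to 28.1% of all genes), and a median log2 fold change of -0.037 to 0.0945 for uptake or storage. The number of sterol synthesis genes lower in Control, the count of those without overlap and the other medians stayed within 1.5 times or 1 SD of the reported value. Of 32 genes chosen by the rule for a fold change, 26 kept their direction in all alternatives. The other 6 were near 0. Apoe was -0.0053 with voom and DESeq2, -0.0070 with edgeR and -0.0084 with edgeR's filter. Fads1 was -0.037 with quantile normalization, -0.0027 with voom, -0.0024 and -0.0039 with edgeR without and with its filter, and -0.0007 with DESeq2. Scd1 was -0.0046, -0.015, -0.017 and -0.014 in the last 4 of these fits. Scd2 was 0.0027 and 0.0006 with edgeR without and with the filter and 0.0045 with DESeq2, and Trem2 was -0.0009 with voom. When 1 sample was left out the log2 fold change ran from -0.028 to 0.064 for Apoe, -0.060 to 0.073 for Fads1, -0.26 to 0.35 for Scd1, -0.18 to 0.19 for Scd2, -0.057 to 0.084 for Trem2 and -0.016 to 0.11 for Fabp5. The cause was not tested. Low counts limited Scd1, Lss, Hsd17b7, Me1 and Apoc4.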
